A study of Mus musculus with 12 samples.

Results

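The genes described here are 35 mouse genes of homologous recombination, the Fanconi anaemia pathway and the replication checkpoint, taken by name from the 23420 genes of the count files. All 35 were found in the files, and all 35 passed the filter on low counts that left 13693 genes for testing. The filter asked for a minimum level in 2 libraries, whichever their groups, so that a gene could pass through a single group. The names were chosen for the pathway, with earlier results of these data known. The genes fall into 8 roles: checkpoint kinases and their activator, end resection and helicases, the BRCA mediators, the genes of the BCDX2 and CX3 complexes, the RAD54 translocases, the Fanconi core complex, the ID complex and the junction nucleases.

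Total RNA of whole liver from C57BL/6 mice was sequenced as 12 libraries in 6 groups of 2. Every mouse carried floxed alleles of Gdown1, a protein encoded by Polr2m that binds RNA polymerase II, so that the controls carried them too. KO livers (Alb-Cre) had Gdown1 deleted in cells that express Cre from the albumin promoter, mainly hepatocytes, and FF livers (Gdown1 flox/flox) carried no Cre; both were taken at 7 weeks. DKO livers (Alb-Cre, p53-/-) and p53KO livers (p53-/-, no Cre) were taken at 8 weeks. DKO TAM livers (Alb-CreERT2, a tamoxifen-activated Cre, p53-/-) and p53KO TAM livers (p53-/-, no Cre in the genotype given) were taken 24 hours after tamoxifen, at an age that is not given. In each comparison the presence of Cre and the deletion cannot be told apart, and the comparison of p53KO with FF livers also differs in age and experiment. The 2 DKO libraries are numbered 2 and 3 in their titles and are given in that order. Nothing in the labels says whether the libraries of a group came from separate mice in every case, so p-values measure the spread between libraries.

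Homologous recombination repairs a broken or stalled DNA fork by copying the sister chromatid. The broken end is trimmed to single-stranded DNA, BRCA1, PALB2 and BRCA2 act there as mediators, and the BCDX2 and CX3 complexes and RAD54 help the end to invade the template. The Fanconi core complex attaches ubiquitin to FANCD2 and FANCI at DNA crosslinks, after which nucleases held by SLX4 cut the crosslink out. These reactions need a sister chromatid, and many of the genes are transcribed mainly in S and G2 phase; most hepatocytes of the adult liver are quiescent.

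The stretches upstream of 6 members are shown because these genes rose in DKO livers and carry, or in the case of Brca1 lack, letters of the E2F site, which is known from cell cycle promoters. Each is the 250 bases before the annotated start in the RefSeq promoter table of build GRCm38.p6, 5′ to 3′ on the strand of the gene. Capitals mark matches, on either strand, to the E2F letters TTTCCCGC, TTTCGCGC, TTTGCCGC or TTTGGCGC and to the CCAAT box letters CCAAT. The stretches lie at chr11:101551956-101552205 (minus strand) for Brca1, chr1:71102973-71103222 (minus strand) for Bard1, chr5:150522371-150522620 (plus strand) for Brca2, chr9:103305077-103305326 (plus strand) for Topbp1, chr5:110839733-110839982 (plus strand) for Chek2 and chr4:43010302-43010551 (minus strand) for Fancg.
Brca1: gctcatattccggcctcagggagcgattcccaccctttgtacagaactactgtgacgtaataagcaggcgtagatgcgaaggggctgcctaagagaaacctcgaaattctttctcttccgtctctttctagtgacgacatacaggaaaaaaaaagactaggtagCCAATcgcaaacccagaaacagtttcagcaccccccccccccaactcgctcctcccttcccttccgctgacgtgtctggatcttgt
Bard1: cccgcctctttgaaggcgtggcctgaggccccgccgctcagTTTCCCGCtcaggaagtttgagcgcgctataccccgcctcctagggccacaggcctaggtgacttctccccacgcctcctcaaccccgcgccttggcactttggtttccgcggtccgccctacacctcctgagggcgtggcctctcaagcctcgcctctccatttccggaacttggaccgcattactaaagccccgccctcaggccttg
Brca2: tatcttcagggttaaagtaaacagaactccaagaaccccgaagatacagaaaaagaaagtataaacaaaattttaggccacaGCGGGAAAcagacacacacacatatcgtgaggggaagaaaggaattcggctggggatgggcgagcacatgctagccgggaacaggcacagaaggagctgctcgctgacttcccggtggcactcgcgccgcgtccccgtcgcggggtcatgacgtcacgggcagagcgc
Topbp1: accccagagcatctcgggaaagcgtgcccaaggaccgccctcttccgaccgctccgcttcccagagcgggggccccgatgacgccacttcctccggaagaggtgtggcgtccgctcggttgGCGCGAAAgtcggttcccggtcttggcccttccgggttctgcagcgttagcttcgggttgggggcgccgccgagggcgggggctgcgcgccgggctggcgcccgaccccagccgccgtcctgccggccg
Chek2: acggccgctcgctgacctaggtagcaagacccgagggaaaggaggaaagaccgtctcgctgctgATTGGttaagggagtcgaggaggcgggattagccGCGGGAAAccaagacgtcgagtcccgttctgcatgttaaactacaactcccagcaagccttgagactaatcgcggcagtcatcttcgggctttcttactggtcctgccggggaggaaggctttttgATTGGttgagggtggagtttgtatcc
Fancg: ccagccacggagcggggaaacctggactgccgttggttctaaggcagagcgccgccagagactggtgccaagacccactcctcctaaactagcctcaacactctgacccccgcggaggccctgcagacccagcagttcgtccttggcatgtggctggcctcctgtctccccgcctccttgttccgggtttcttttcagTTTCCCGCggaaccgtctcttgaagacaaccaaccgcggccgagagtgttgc

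Of the 35 genes, 27 had an entry in that table. E2F letters were found upstream of 5 of the 19 matched members that were higher in DKO livers (Bard1, Brca2, Topbp1, Chek2 and Fancg), which is 26.3%, and of 0 of the 8 other matched members. Over all 27025 genes of the table the share was 2.16%. CCAAT letters stood upstream of 15 of the 27 (55.6%), against 37.5% of the table. The letters of the cell cycle homology region, TTTGAA or TTCGAA, stood upstream of 2 of the 27 (7.41%, Atr and Bard1), against 19.6% of the table, and those of the NRF1 motif upstream of 2 of the 27 (7.41%, Atm and Palb2), against 4.23%. All motifs were searched on both strands, and a match is a match of letters only.

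Each library held between 4939408 and 8776369 counts, and a level of 3 counts corresponds to 0.342 to 0.607 CPM. CPM (counts-per-million) values below are scaled with edgeR's trimmed mean of M-values (TMM), and a gene was called when its adjusted p was under 0.05 in edgeR's quasi-likelihood test with Benjamini-Hochberg adjustment over all 13693 genes. Polr2m was lower in KO than in FF livers (log2 fold change -0.67 ± 0.13 SE, adjusted p = 0.0024) and in DKO than in p53KO livers (-0.70 ± 0.13, adjusted p = 2.4e-04). With library totals in place of TMM the KO call held (-0.41, adjusted p = 0.037), and in DKO livers the sign turned and the call was lost (0.068, adjusted p = 0.65). In DKO TAM livers it stood at 65.9 and 54.6 CPM, against 75.9 and 78.7 in p53KO TAM livers, and was not called (adjusted p = 0.063). Trp53, which encodes p53, was lower in p53KO than in FF livers (-1.81 ± 0.31, adjusted p = 0.0087), a call lost without either p53KO replicate or FF replicate 1 (0.065 to 0.11). It stood at 8.39 and 8.13 CPM in DKO livers, against 3.07 and 2.79 in p53KO livers, and was called higher (1.48 ± 0.29, adjusted p = 5.0e-04). It was also called higher in DKO TAM livers, at 8.96 and 10.01 CPM, against 3.79 and 3.97 in p53KO TAM livers (1.29 ± 0.28, adjusted p = 0.0039; 0.052 without p53KO TAM replicate 1). The Trp53 levels of the DKO and DKO TAM libraries, which are labelled p53-/-, thus lay within the range of the FF libraries, at 13.1 and 7.94 CPM, and below the KO libraries, at 17.1 and 22.5 CPM. Trp53 was also called higher in KO than in FF livers (log2 fold change 0.93, edgeR adjusted p = 0.013). That log2 fold change was 0.59 without FF replicate 2 and 0.71 without KO replicate 2. The labels do not describe the p53 allele and the counts are summed per gene, so that these values do not check the loss of p53, and KO, DKO and DKO TAM are used below as the names of labels. Hepatocyte markers led every library, with summed levels of 32618 to 35295 CPM in DKO, 57130 to 65163 in KO, 41520 to 45675 in DKO TAM and 101795 to 119055 in the 3 control groups. With 2 libraries against 2, an exact permutation test of a single gene cannot give a p below 0.333, so that the calls rest on the spread shared by all 6 groups. The 4 count files that hold a program line name no strand option, and the other 8 do not say how strand was treated.

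In DKO livers 24 of the 35 genes rose against p53KO livers (68.6%), 2 fell (Atm and Nbn) and 9 were not called. Over all tested genes 51.4% were called in this comparison, 25.7% higher and 25.7% lower. The median log2 fold change of the 35 was 1.49, beside 0.01 over all genes tested. Exo1, Eme1 and Fanca, which are among the 24, passed the filter on low counts only through the DKO libraries. In each of the other groups Exo1 held 3 to 10 counts, Eme1 2 to 19 and Fanca 9 to 19. Their part in these values is therefore not independent of the filter. In KO livers only Brca1 and Rad54l rose against FF livers and Atm fell, with a median of 0.09 beside 0.02; over all genes 6.92% were called higher and 7.88% lower, so that the members' 5.71% and 2.86% were near or under the background. In DKO TAM livers 5 genes rose (Brca1, Brca2, Blm, Rad54b and Fancm) and 2 fell (Fancc and Fancl) against p53KO TAM livers, with a median of 0.14 beside 0.01; the background was 8.61% higher and 10.1% lower, against 14.3% and 5.71% of the members. The DKO TAM count of 7 was 1 without p53KO TAM replicate 2, 3 without DKO TAM replicate 1 and 4 without either of the other 2 libraries, and the KO count of 3 was 1 without KO replicate 2. With library totals in place of TMM, which moves the median of all genes up by 0.26 in KO, 0.77 in DKO and 0.35 in DKO TAM livers, 4 rose and 0 fell in KO, 29 rose and 0 fell in DKO and 9 rose and 0 fell in DKO TAM livers. DESeq2 and limma-voom called no member in the KO or DKO TAM comparison that edgeR did not. Summed over the 35 genes, DKO livers held 695.6 to 719 CPM, against 438 to 464 in p53KO livers; KO livers held 403 to 413, against 428 to 452 in FF livers; DKO TAM livers held 425 to 441, against 399 to 410 in p53KO TAM livers. In whole tissue, more cells that express a gene and more RNA per cell cannot be told apart.

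**Figure D1:**
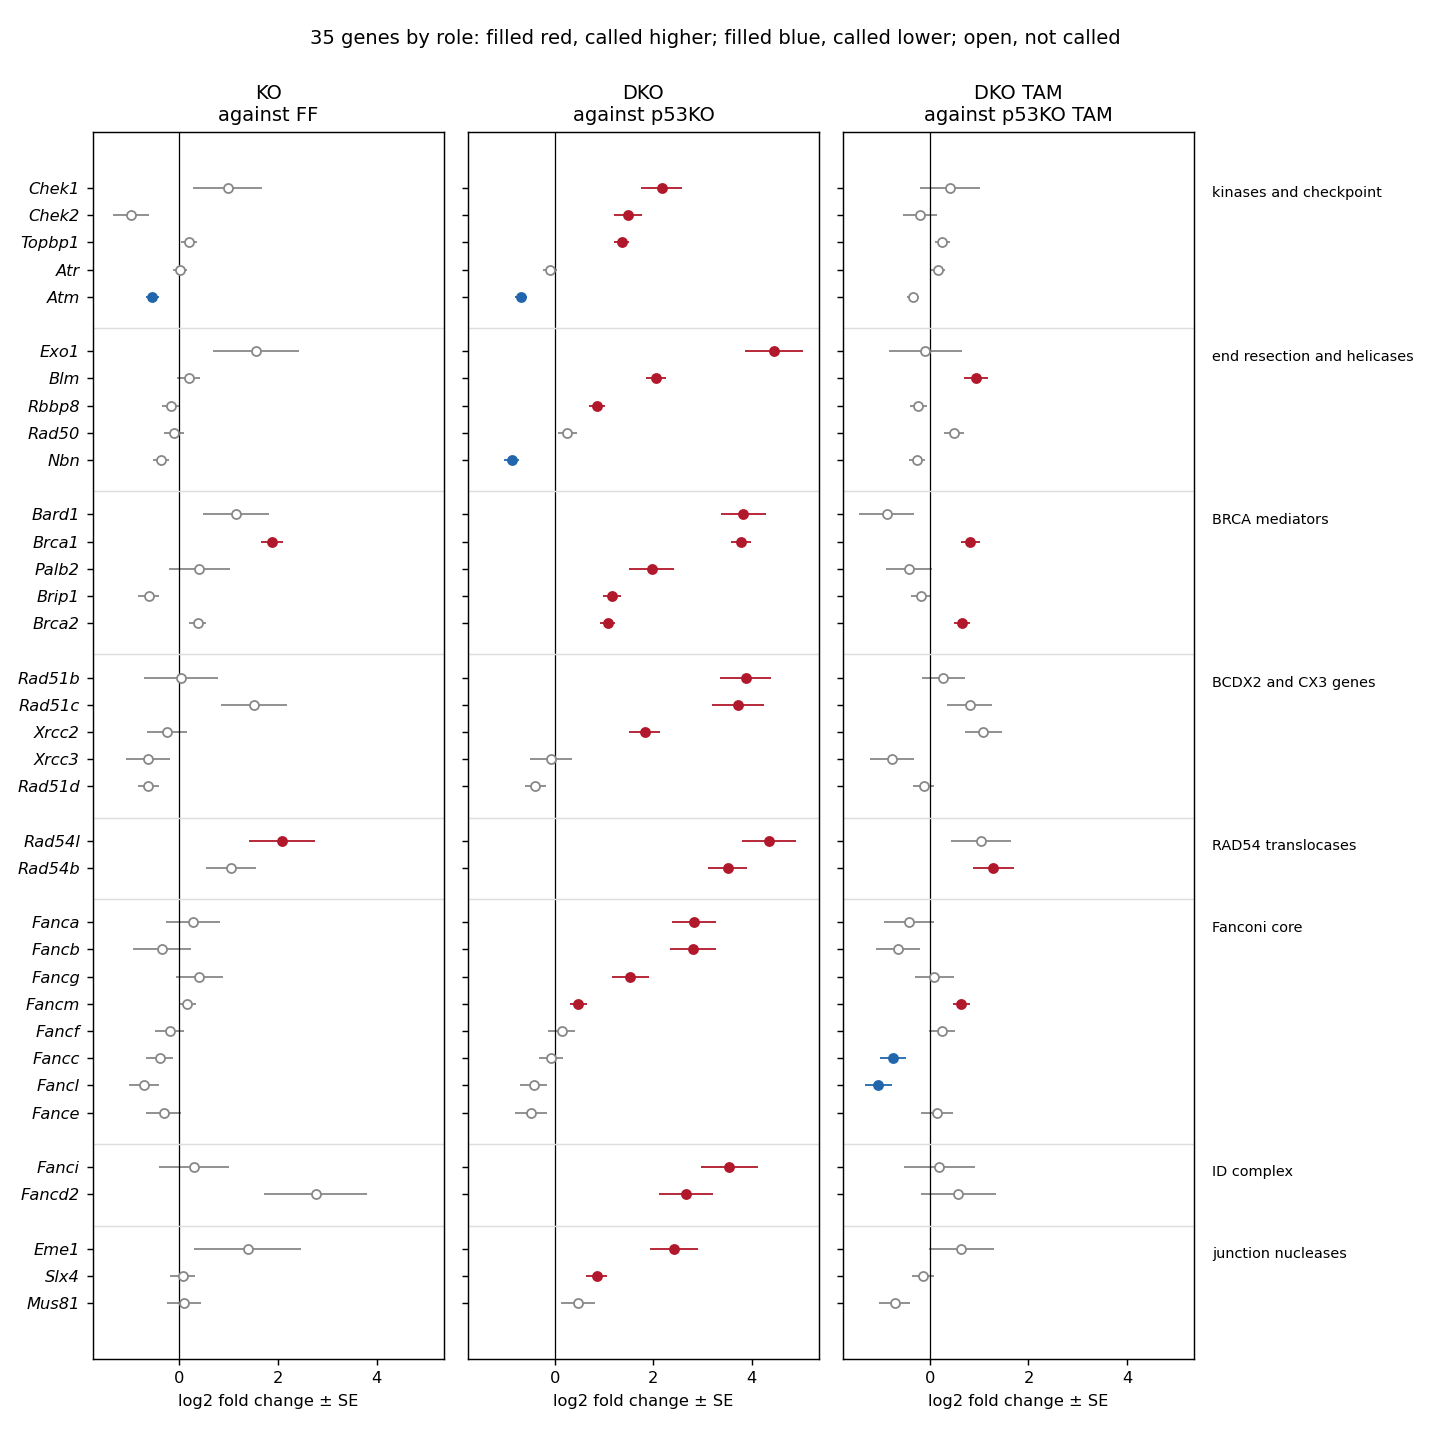
Log2 fold change with its standard error (horizontal axis) for each of the 35 genes (rows, grouped by role) in KO against FF, DKO against p53KO and DKO TAM against p53KO TAM livers; filled red points were called higher, filled blue points lower and open points were not called. In the DKO panel 24 points are red and 2 blue, against 2 red and 1 blue in the KO panel and 5 red and 2 blue in the DKO TAM panel.

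The checkpoint kinases moved apart. ATM responds to double-strand breaks, ATR responds to single-stranded DNA and is activated by TOPBP1, and CHEK1 and CHEK2 are kinases that they act on. Atm stood at 64.0 and 57.5 CPM in KO livers, against 89.9 and 88.3 in FF livers (log2 fold change -0.55 ± 0.13, edgeR adjusted p = 0.0075). In DKO livers it stood at 59.9 and 55.3 CPM, against 89.8 and 94.8 in p53KO livers (-0.68 ± 0.12, adjusted p = 2.3e-04). In both pairs the libraries labelled as Gdown1-deleted lay below their controls, but with library totals in place of TMM the sign turned in DKO livers (0.087, adjusted p = 0.55) and the KO call was lost (adjusted p = 0.11), as it was without KO replicate 2 (adjusted p = 0.066). In DKO TAM livers Atm stood at 64.0 and 55.1 CPM, against 72.1 and 79.1 in p53KO TAM livers, and was not called (-0.34 ± 0.13, adjusted p = 0.066).

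Topbp1 rose to 66.8 and 69.8 CPM in DKO livers, against 30.0 and 23.0 in p53KO livers, a 2.56-fold difference (log2 1.36 ± 0.15, edgeR adjusted p = 1.8e-06). Chek2 rose to 8.99 and 8.64 CPM in DKO livers, against 3.41 and 2.79 in p53KO livers (1.49 ± 0.29, adjusted p = 3.6e-04). In KO livers Chek2 leaned the other way without being called, at 1.86 and 2.11 CPM, against 4.52 and 3.45 in FF livers (-0.98 ± 0.36, adjusted p = 0.082). Chek1 also rose in DKO livers, by 2.17 ± 0.42 on the log2 scale (adjusted p = 4.1e-04), and Atr was not called in any comparison, with 44.7 to 59.4 CPM over the 12 libraries. Over the 5 genes of this role, 3 rose and 1 fell in DKO livers, 1 fell in KO livers and 0 were called in DKO TAM livers by edgeR, DESeq2 or limma-voom, where 1 (Atm) had an unadjusted p under 0.05 in edgeR.

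Of the 5 resection and helicase genes, 3 rose and 1 fell in DKO livers. RAD50 and NBN form the MRN complex with MRE11, RBBP8 (CtIP) starts end trimming, EXO1 and BLM extend it, and BLM also dissolves double Holliday junctions. Exo1 had 154 counts over both DKO libraries, at 6.61 and 6.50 CPM, against 3 counts in 1 of the p53KO libraries, at 0.51 and 0 CPM. The ratio of these summed counts was 23.0, with a 95% exact binomial interval of 7.72 to 112.8 that covers counting error only (edgeR adjusted p = 1.1e-05). Blm rose to 27.6 and 24.6 CPM in DKO livers, against 6.32 and 6.22 in p53KO livers (log2 fold change 2.05 ± 0.20, adjusted p = 3.6e-07). Rbbp8 rose to 62.0 and 73.0 CPM in DKO livers, against 37.4 and 36.7 in p53KO livers (0.87 ± 0.16, adjusted p = 3.4e-04). For each of them both DKO libraries lay above both p53KO libraries, as they did for 39.7% of all tested genes; the groups did not overlap in either direction for 77% of all genes and for 29 of the 35 members.

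Nbn fell in DKO livers, where it stood at 23.8 and 20.7 CPM, against 43.9 and 37.5 in p53KO livers (-0.87 ± 0.15, edgeR adjusted p = 1.4e-04; -0.11 and not called, adjusted p = 0.54, with library totals in place of TMM). Its partner Rad50 was not called in any comparison and ranged from 43.1 to 82.5 CPM over the 12 libraries. In DKO TAM livers Blm alone of this role rose, to 7.60 and 7.39 CPM, against 4.37 and 3.34 in p53KO TAM livers (0.93 ± 0.24, adjusted p = 0.012). That call was lost without p53KO TAM replicate 2 (adjusted p = 0.093) and in DESeq2 (0.054). In KO livers 0 genes of this role were called by edgeR, DESeq2 or limma-voom, and 1 (Nbn) had an unadjusted p under 0.05 in edgeR.

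Brca1, a BRCA mediator, was the member called higher in all 3 comparisons. BRCA1 and BARD1 form a ubiquitin ligase, PALB2 joins BRCA1 to BRCA2, and BRIP1 (FANCJ) is a helicase bound by BRCA1. Brca1 stood at 16.8 and 16.3 CPM in KO livers, against 4.29 and 4.66 in FF livers, a 3.67-fold difference (log2 1.88 ± 0.23, edgeR adjusted p = 3.3e-05). In DKO livers it reached 54.8 and 57.8 CPM, against 4.27 and 3.86 in p53KO livers, a 13.7-fold difference (3.78 ± 0.21, adjusted p = 6.9e-10). After tamoxifen it stood at 12.5 and 17.4 CPM in DKO TAM livers, against 8.30 and 8.56 in p53KO TAM livers, a 1.77-fold difference (0.82 ± 0.19, adjusted p = 0.0078). The libraries labelled as Gdown1-deleted lay above their controls in all 3 pairs, and the controls after tamoxifen stood higher than the other controls; the KO and DKO calls held under all 17 alternatives, and the DKO TAM call was lost without p53KO TAM replicate 1 (adjusted p = 0.072) or DKO TAM replicate 2 (0.10).

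All 5 mediators rose in DKO livers. Bard1 rose to 9.75 and 12.3 CPM in DKO livers, against 0.51 and 1.07 in p53KO livers (log2 fold change 3.82 ± 0.46, edgeR adjusted p = 3.6e-06). In contrast to Brca1, its DKO TAM libraries, at 1.04 and 0.63 CPM, did not stand above those of p53KO TAM livers, at 0.87 and 2.51. Brca2 rose to 52.1 and 56.5 CPM in DKO livers, against 27.8 and 23.6 in p53KO livers (1.07 ± 0.16, adjusted p = 3.8e-05). Brca2 also rose to 39.7 and 35.4 CPM in DKO TAM livers, against 26.5 and 20.9 in p53KO TAM livers (0.65 ± 0.16, adjusted p = 0.011; 0.12 without p53KO TAM replicate 2 and 0.068 without DKO TAM replicate 1). Brip1 rose to 23.2 and 23.4 CPM in DKO livers, against 10.1 and 10.7 in p53KO livers (1.17 ± 0.19, adjusted p = 7.9e-05). Palb2 rose to 4.75 and 4.96 CPM in DKO livers, against 1.54 and 0.86 in p53KO livers (1.97 ± 0.46, adjusted p = 0.0019). Brip1 was lower in both KO libraries, at 9.49 and 7.69 CPM, than in the FF libraries, at 14.7 and 12.1, without being called (-0.63 ± 0.21, adjusted p = 0.059).

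**Figure D2:**
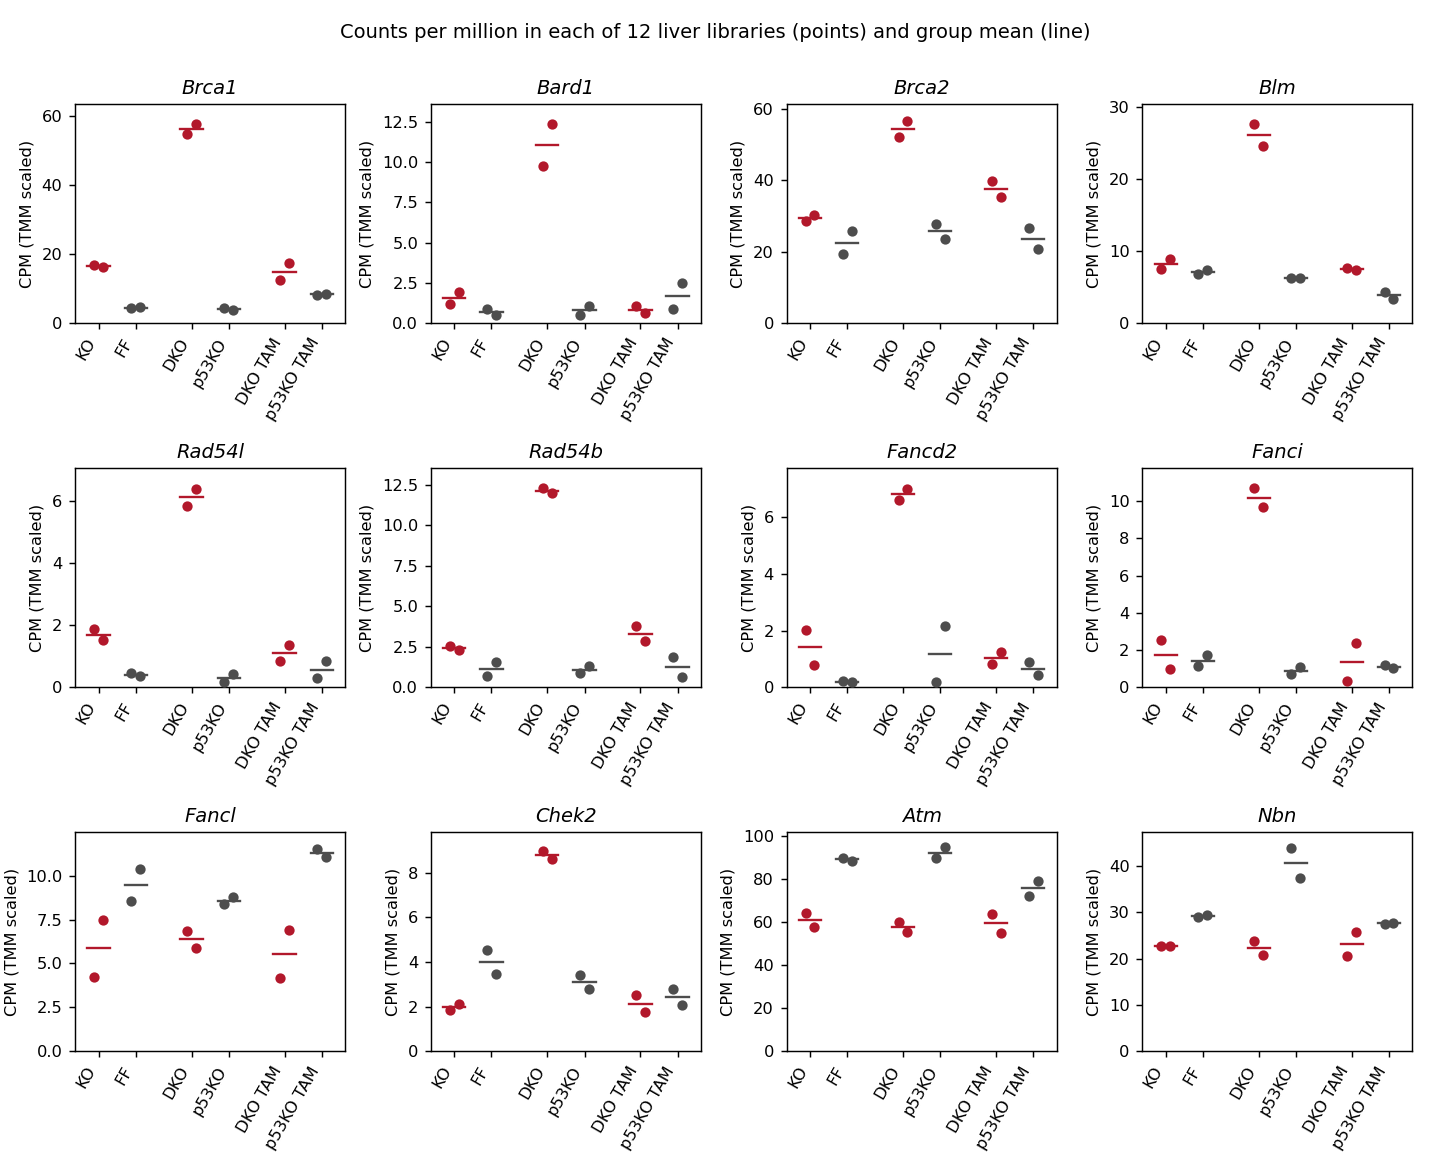
TMM-scaled CPM (vertical axis, from 0) of 12 members in each of the 12 libraries, by group; points are libraries, lines are group means, red marks the groups labelled as Gdown1-deleted and grey their controls. Brca1 stands at 54.8 and 57.8 CPM in DKO livers, against 4.27 and 3.86 in p53KO livers, while Atm and Nbn are lower in DKO than in p53KO livers.

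Of the 5 genes of the BCDX2 and CX3 complexes, 3 rose in DKO livers. RAD51B, RAD51C, RAD51D and XRCC2 form the BCDX2 complex, and RAD51C pairs with XRCC3 in CX3. Rad51b rose to 7.72 and 9.50 CPM in DKO livers, against 0.51 and 0.64 in p53KO livers (log2 fold change 3.87 ± 0.51, edgeR adjusted p = 1.0e-05). Rad51c rose to 6.27 and 6.59 CPM in DKO livers, against 0.68 and 0.21 in p53KO livers (3.72 ± 0.53, adjusted p = 2.2e-05). Xrcc2 rose to 14.0 and 12.1 CPM in DKO livers, against 4.78 and 2.36 in p53KO livers (1.82 ± 0.32, adjusted p = 1.7e-04). Rad51d and Xrcc3 were not called in any comparison, with 9.07 to 23.7 and 1.752 to 7.005 CPM over the 12 libraries. In KO and DKO TAM livers 0 genes of this role were called by edgeR, DESeq2 or limma-voom; 2 in KO livers (Rad51c and Rad51d) and 1 in DKO TAM livers (Xrcc2) had an unadjusted p under 0.05 in edgeR. Xrcc2 stood at 4.17 and 6.51 CPM in DKO TAM livers, against 2.62 and 2.30 in p53KO TAM livers (1.09 ± 0.37, adjusted p = 0.052).

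Both RAD54 genes rose in DKO livers. RAD54 (Rad54l) and its relative RAD54B move along DNA and help open the template. Rad54l had 144 counts in the DKO libraries, at 5.85 and 6.42 CPM, against 3 counts in the p53KO libraries, at 0.17 and 0.43 CPM. The ratio of the summed counts was 21.5 (95% exact binomial interval 7.21 to 105.5; edgeR adjusted p = 5.8e-06). Rad54l shares 89 exon bases with Lrrc41 on the other strand, and Lrrc41 was also higher in DKO livers (0.71 ± 0.20, adjusted p = 0.0081). Rad54l was also called in KO livers, at 1.86 and 1.54 CPM, against 0.45 and 0.35 in FF livers (log2 fold change 2.07 ± 0.67, adjusted p = 0.046). That KO call was lost in 10 of 16 alternatives, among them DESeq2 (adjusted p = 0.15) and each of the 4 libraries left out (0.096 to 0.23). Rad54b rose to 12.29 and 11.98 CPM in DKO livers, against 0.85 and 1.29 in p53KO livers (3.51 ± 0.39, adjusted p = 1.6e-06). Rad54b stood at 3.75 and 2.88 CPM in DKO TAM livers, against 1.89 and 0.63 in p53KO TAM livers (1.29 ± 0.42, adjusted p = 0.043), a call lost in 10 of 17 alternatives. Rad54b shares 4126 of its 7051 exon bases with Fsbp on the same strand; Fsbp averaged 1.49 CPM in DKO livers, against 0.77 in p53KO livers, and was not called (adjusted p = 0.14).

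The Fanconi core complex was the role with the smallest share of genes that rose, 4 of 8 in DKO livers. FANCA and FANCG form a subcomplex, FANCB with FANCL forms the catalytic module in which FANCL is the ubiquitin ligase, FANCC, FANCE and FANCF form the module that holds the substrate, and FANCM anchors the complex to DNA. Fanca rose to 6.27 and 6.16 CPM in DKO livers, against 0.68 and 1.07 in p53KO livers (log2 fold change 2.83 ± 0.45, edgeR adjusted p = 6.2e-05). Fanca shares 777 of its 4541 exon bases with Zfp276 on the other strand. Zfp276 averaged 21.5 CPM in DKO livers, against 28.2 in p53KO livers, and was not called (-0.39 ± 0.17, adjusted p = 0.065). Fancb rose to 6.02 and 4.79 CPM in DKO livers, against 1.02 and 0.43 in p53KO livers (2.81 ± 0.47, adjusted p = 1.0e-04). Fancg rose to 5.77 and 6.42 CPM in DKO livers, against 2.22 and 1.93 in p53KO livers (1.54 ± 0.38, adjusted p = 0.0028). The 3 genes of the substrate module, Fancc, Fance and Fancf, and the ligase Fancl were not called in DKO livers, with log2 fold changes of -0.08, -0.48, 0.14 and -0.42.

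Fancm rose in both pairs labelled p53-/-. It stood at 27.05 and 24.99 CPM in DKO livers, against 17.6 and 19.7 in p53KO livers (log2 fold change 0.48 ± 0.16, edgeR adjusted p = 0.021), a call lost in DESeq2 (0.061) and without p53KO replicate 1 (0.15) or DKO replicate 2 (0.12). In DKO TAM livers it stood at 27.2 and 23.2 CPM, against 17.3 and 14.8 in p53KO TAM livers (0.64 ± 0.17, adjusted p = 0.014; 0.11 without p53KO TAM replicate 2 and 0.10 without DKO TAM replicate 1). Fancl fell in DKO TAM livers, where it stood at 4.17 and 6.88 CPM, against 11.5 and 11.1 in p53KO TAM livers (-1.05 ± 0.27, adjusted p = 0.014), a call lost without p53KO TAM replicate 1, p53KO TAM replicate 2 or DKO TAM replicate 1 (adjusted p of up to 0.13). It leaned the same way in KO livers without being called, at 4.24 and 7.50 CPM, against 8.59 and 10.4 in FF livers (-0.72 ± 0.30, adjusted p = 0.12). Fancl shares 385 exon bases with Vrk2 on the other strand, and Vrk2 did not differ beyond its error in DKO TAM livers (12.9 CPM, against 12.7 in p53KO TAM livers). Fancc stood at 3.65 and 4.51 CPM in DKO TAM livers, against 6.41 and 7.31 in p53KO TAM livers (-0.75 ± 0.25, adjusted p = 0.0498). The Fancc call was lost in 13 of 17 alternatives, and with library totals in place of TMM neither Fancl (adjusted p = 0.052) nor Fancc (0.24) was called.

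The ID complex, the substrate of the core complex, rose in DKO livers with both of its genes. Fanci rose to 10.7 and 9.67 CPM in DKO livers, against 0.68 and 1.07 in p53KO livers (log2 fold change 3.54 ± 0.58, edgeR adjusted p = 1.4e-04). Fanci shares 398 of its 4619 exon bases with Polg on the other strand. Polg averaged 33.8 CPM in DKO livers, against 47.9 in p53KO livers, and was called lower (-0.50 ± 0.14, adjusted p = 0.0074). Fancd2 rose to 6.61 and 7.02 CPM in DKO livers, against 0.17 and 2.14 in p53KO livers (2.66 ± 0.55, adjusted p = 7.0e-04). The p53KO libraries differed for Fancd2 more than for Fanci, and both lay below the DKO libraries. In KO livers Fancd2 had 16 counts, at 2.03 and 0.77 CPM, against 2 counts in FF livers, at 0.23 and 0.17 CPM; the ratio of the counts was 7.36 (95% exact binomial interval 1.73 to 66.0), and the gene was not called (adjusted p = 0.091). Among the junction nucleases, Slx4, the scaffold, rose to 14.3 and 17.3 CPM in DKO livers, against 8.54 and 9.01 in p53KO livers (0.85 ± 0.21, adjusted p = 0.0032). Eme1, the partner that the nuclease MUS81 needs, rose to 4.75 and 5.56 CPM in DKO livers, against 0.85 and 1.07 in p53KO livers (2.42 ± 0.49, adjusted p = 6.2e-04). Eme1 shares 215 exon bases with Lrrc59 on the other strand, and Lrrc59 was also higher in DKO livers (0.80 ± 0.17, adjusted p = 8.0e-04). Mus81 was not called, at 5.34 and 5.91 CPM in DKO livers, against 2.56 and 5.79 in p53KO livers (0.47 ± 0.34, adjusted p = 0.26).

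Genes whose proteins work in pairs were compared per length, as CPM per kilobase of exon (RPKM, TMM-scaled). Brca1 averaged 8.46 ± 0.32 RPKM (SD, n = 2) in DKO livers and 0.611 ± 0.043 in p53KO livers, and Bard1 averaged 2.03 ± 0.33 in DKO livers and 0.145 ± 0.073 in p53KO livers. Rad50 was the highest of the 35 in FF livers, at 13.5 ± 0.4 RPKM, and Fancd2 the lowest, at 0.0417 ± 0.0079. In DKO livers Rbbp8 was the highest, at 17.3 ± 2.0 RPKM, and Exo1 the lowest, at 1.19 ± 0.01; Rbbp8 and Rad50 (14.9 ± 1.5) did not differ there beyond their spread. The 24 genes that were higher in DKO livers had a median of 0.367 RPKM in the FF libraries, against 4.17 RPKM for the 11 other genes. The ranges of these sets overlapped, with 0.0417 (Fancd2) to 6.67 (Rbbp8) RPKM in the 24 genes and 1.40 (Fancc) to 13.5 (Rad50) in the 11. The FF libraries shared the model, and none of the 35 genes was called in p53KO against FF livers. FF levels are therefore not a baseline separate from the p53KO levels that entered the grouping.

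**Figure D3:**
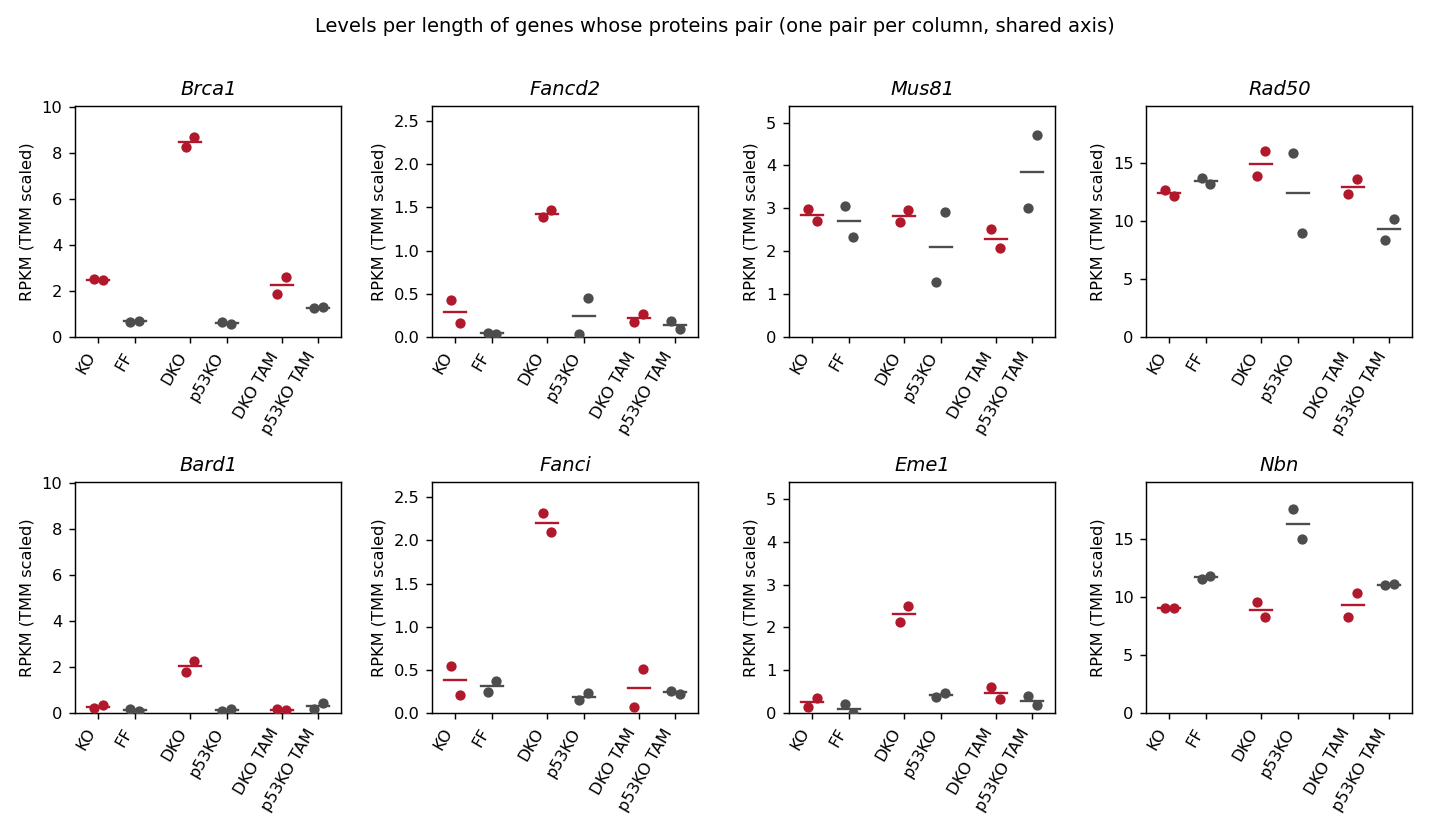
TMM-scaled RPKM (vertical axis, from 0, shared within a column) of 4 pairs of genes whose proteins work together, in each of the 12 libraries; points are libraries, lines are group means, red marks the groups labelled as Gdown1-deleted and grey their controls. Brca1 and Bard1, and Fancd2 and Fanci, are higher in DKO than in p53KO livers in both members of the pair, whereas Eme1 rose and Mus81 was not called, and Nbn fell and Rad50 was not called.

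Whether the effect labelled as Gdown1 deletion differed with the p53 label was tested as the effect in DKO against p53KO livers minus that in KO against FF livers; ages and experiments differ between these pairs. The difference passed the test for 14 of the 35 genes, all higher in the pair labelled p53-/- (over all genes 9.75% were called higher and 12.9% lower). Rad51b had the largest estimate, 3.84 ± 1.01 on the log2 scale (edgeR adjusted p = 0.012; 0.13 without FF replicate 1), and Brca1 differed by 1.90 ± 0.33 (adjusted p = 8.2e-04). The Rad51b estimate rests on few counts, with 6 over the p53KO, 8 over the FF and 9 over the KO libraries. Chek2 (2.47 ± 0.46, adjusted p = 0.0014) and Brip1 (1.79 ± 0.29, adjusted p = 4.2e-04) rose in DKO livers and stood lower in KO than in FF livers without being called. The difference was not called for Atm (-0.13 ± 0.18, adjusted p = 0.65). The count was 8 without FF replicate 2. In the same test 21 of 27 proliferation genes were called higher.

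The effect in DKO livers minus that in DKO TAM livers passed the test for 18 genes, of which 17 were higher and 1, Nbn, lower (48.6% and 2.86%, against 13.4% and 14.2% over all genes). The p53 label is shared by these pairs. The Cre line, the tamoxifen treatment, the experiment and the time since deletion differ, and the age of the livers after tamoxifen is not given. These cannot be told apart. Of the 27 proliferation genes, 22 were called higher and 0 lower in this test, with a median difference of 2.62, beside 1.18 for the 35 members. Bard1 had the largest difference, 4.70 ± 0.77 (edgeR adjusted p = 3.4e-04), and Brca1 differed by 2.96 ± 0.29 (adjusted p = 5.2e-06). The Bard1 estimate rests on few counts, with 8 over the p53KO, 18 over the p53KO TAM and 15 over the DKO TAM libraries. The Nbn difference was lost in 14 of 21 alternatives, upper quartile scaling (19 higher, 0 lower) and library totals (23 higher, 0 lower) among them. For Brca2 and Fancm, which rose in both pairs, the difference was not called (0.42 ± 0.23, adjusted p = 0.19, and -0.16 ± 0.24, adjusted p = 0.66). In p53KO against FF livers, where Gdown1 was kept, none of the 35 genes was called by edgeR, DESeq2 or limma-voom; 4 had an unadjusted p under 0.05 in edgeR (Nbn, Rbbp8, Rad51d and Eme1), the median was -0.05 and 0.862% of all genes were called (0.592% higher and 0.27% lower). These comparisons share libraries with those above.

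Other lists of repair and proliferation genes were set beside the members. Of 56 other homologous recombination, Fanconi and checkpoint genes, 25 rose and 5 fell in DKO livers, with a median log2 fold change of 0.45. Parpbp, an inhibitor of homologous recombination, stood at 32.7 and 28.6 CPM in DKO livers, against 0.51 and 1.07 in p53KO livers, and Polq, the polymerase of end joining by microhomology, at 17.98 and 19.17, against 0.85 and 1.07. In KO livers 2 of the 56 rose (Polq and Uhrf1, a chromatin ubiquitin ligase) and 3 fell, among them Wrn, a RecQ helicase, and Wee1, a kinase that holds back CDK1. In DKO TAM livers 7 rose, among them Rtel1, Parpbp, Mdc1 and Rad17, and 1 fell. Of the 16 genes of non-homologous end joining, 2 rose and 3 fell in DKO livers (median -0.14), none rose and 1 fell in KO livers, and 1 rose and 1 fell in DKO TAM livers; the gene that fell in each was Tdp2 in KO and DKO TAM livers, and it was also among those that fell in DKO livers. Of 35 tested genes of excision and mismatch repair, 7 rose and 8 fell in DKO livers (median -0.05), 3 rose in KO livers and 5 rose and 4 fell in DKO TAM livers. With library totals in place of TMM, 0 genes of these 3 lists were called lower in DKO livers, and 45, 12 and 22 were called higher. The members' median in DKO livers was then 2.26, beside 0.78 over all genes. With upper quartile scaling 10 excision and mismatch repair genes rose and 4 fell in DKO livers, and 2 end joining genes rose and 1 fell. With library totals 11 of the 56, 2 of the 16 and 7 of the 35 rose in KO livers, where 2 of the 56 fell, and 21, 8 and 14 rose and 0 fell in DKO TAM livers.

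**Figure D4:**
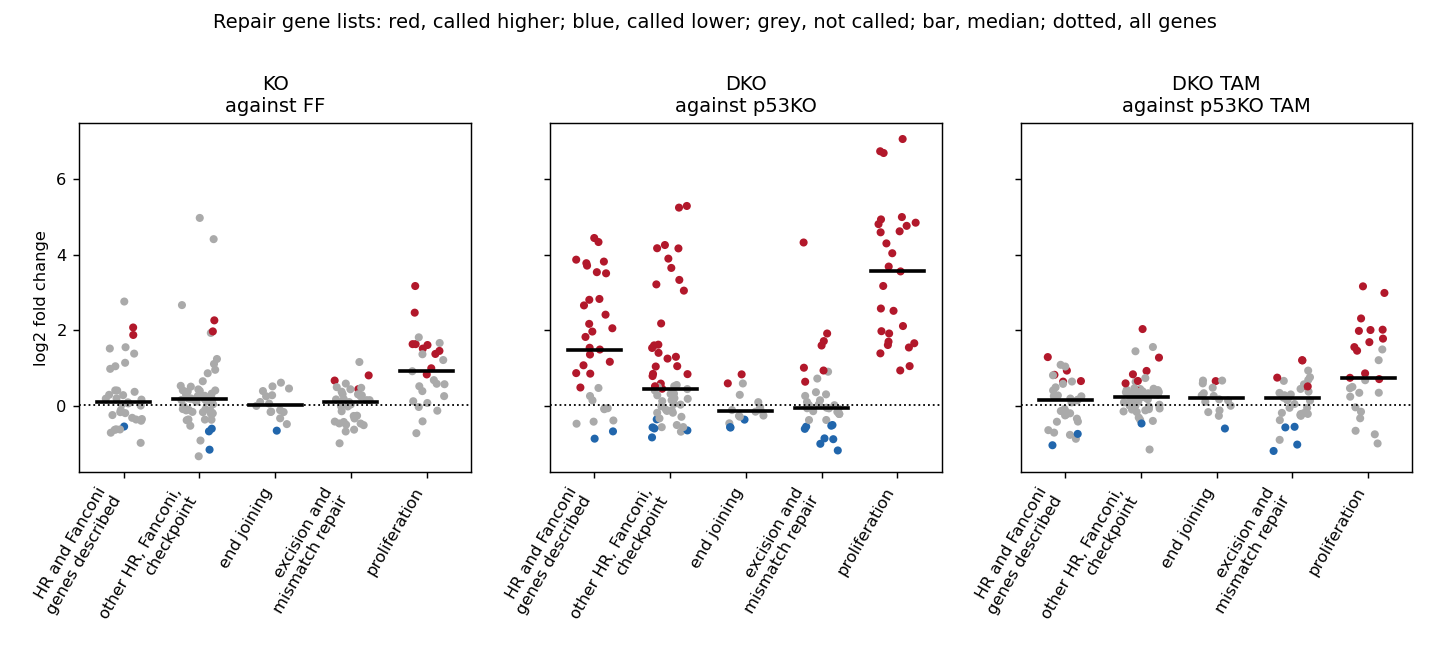
Log2 fold change (vertical axis) of each tested gene of 5 lists (columns of points) in 3 comparisons; red points were called higher, blue points lower, grey points were not called, the bar is the list's median and the dotted line the median of all tested genes. In DKO against p53KO livers the median was 1.49 for the 35 genes, 0.45 for other genes of the same pathways, -0.14 for end joining, -0.05 for excision and mismatch repair and 3.56 for proliferation.

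Proliferation genes rose together with the members in DKO livers. All 27 genes of the proliferation list rose in DKO livers (median log2 fold change 3.56), with a summed level of 1604 to 1607 CPM, against 157 to 174 in p53KO livers. Top2a, a topoisomerase of dividing cells, stood at 212 and 198 CPM in DKO livers, against 6.32 and 6.43 in p53KO livers. In KO livers 10 of the 27 rose and none fell (median 0.91; 269.7 to 270.2 CPM, against 142 to 174 in FF livers), and in DKO TAM livers 13 rose and none fell (median 0.74; 273 to 350 CPM, against 182 to 184 in p53KO TAM livers). The part of the share of dividing cells in the members' values was not tested.

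Markers of cell types moved as well in DKO livers. All 6 hepatocyte markers fell, with Alb, the gene whose promoter drives the Cre, at 15744 and 19209 CPM in DKO livers, against 71558 and 71735 in p53KO livers. All 8 stellate cell and fibroblast markers rose (1134 to 1231 CPM in sum, against 264 to 267 in p53KO livers), as did all 6 macrophage markers (914 to 988 CPM, against 411 to 455) and the 5 tested of 6 cholangiocyte markers (258 to 287 CPM, against 52.6 to 56.4). Of the lymphocyte markers 2 of 6 tested rose (123 to 132 CPM over 9 genes, against 42.9 to 49.3). Of 6 endothelial markers 2 rose and 2 fell (441 to 526 CPM, against 593 to 607), and of 4 tested erythroid and neutrophil markers 1 rose and 2 fell (50.7 to 51.6 CPM over 7 genes, against 226 to 229). No marker of the hepatocyte, cholangiocyte, stellate, macrophage or endothelial lists was at 0 counts in any library; Hba-a1 was at 0 in all 4 of these libraries, Elane in DKO replicate 3 and p53KO replicate 2, and Cd8a in p53KO replicate 2. In KO livers 4 of 6 hepatocyte markers fell and 1 marker each of the stellate, macrophage and endothelial lists rose, and in DKO TAM livers 5 of 6 hepatocyte, 1 stellate and 3 endothelial markers fell and 1 cholangiocyte and 1 macrophage marker rose. Summed macrophage markers stood at 572 to 626 CPM in KO livers, against 457.9 to 476 in FF livers, and at 736 to 738 in DKO TAM livers, against 569 to 615 in p53KO TAM livers. The part of cell composition in the members' values was not tested.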

How the data were processed

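RNA of 12 mouse liver libraries was analysed from the raw counts per gene that the authors deposited for 23420 genes. Libraries came from a stranded total RNA kit, per the labels' protocols. The submitters' processing notes name CASAVA 1.82, HISAT2, featureCounts and the build mm10 (GRCm38). The file headers of 4 files name featureCounts 1.6.4 with exons grouped by gene and no strand option; the other 8 hold no program line. In the 4 files reads from overlapping genes can therefore not be told apart by strand, and for the other 8 this is not known.

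The 6 groups follow the labels. Counts were tested in R 4.3.3 with edgeR 4.0.16: filterByExpr (minimum count 10) and TMM scaling came before a single model of group means, fitted to the 12 libraries together with 6 residual degrees of freedom, and the robust quasi-likelihood F test with Benjamini-Hochberg adjustment over 13693 genes, called at an adjusted p under 0.05. The SE was taken from the log2 fold change and F (fold change over root F), and a log2 fold change is always the group named first over the second. The common biological coefficient of variation was 0.124. Where a control group had 1 to 3 counts, the ratio of summed counts is given with a 95% exact binomial interval, which covers counting error only. The method was tested on simulated counts with the depths of these libraries. They had the same spread for every gene and few changed genes, all with at least 10 counts on average. The simulation therefore does not cover control groups with few counts or a change as wide as that in DKO livers. The settings varied were the scaling (library totals, upper quartile or RLE), the genes kept (no filter, at least 1 CPM in 2 libraries and 10 counts on average, or without genes of haemoglobin, mitochondria and ribosomal RNA) and the tool (limma 3.58.1 with voom, DESeq2 1.42.0), and further ones were the libraries compared alone, replicate blocks, each library left out and an adjusted p under 0.01.

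The members, the roles and the other lists were chosen with earlier results of these data known. By the rule for named genes, a member was given in every library where it was called in a comparison other than DKO against p53KO or was among the 3 smallest p of its role there. For each of the other lists the text names at most 4 genes per comparison, those of smallest p, and markers of cell types are named as checks. Of 60 names on the list of other recombination, Fanconi and checkpoint genes 56 were found. Adgre1, Hbb-bs and Ly6g of the marker lists were not matched. Values of a few other genes are not reported here.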

Additional observations from a re-analysis of the deposited data

Results flagged for a closer look

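For 14 genes the effect labelled as Gdown1 deletion was larger in DKO against p53KO livers than in KO against FF livers, by edgeR's interaction contrast with adjusted p under the threshold. On the log2 scale the differences were 2.47 for Chek2, 1.16 for Topbp1, 1.04 for Rbbp8, 1.87 for Blm, 1.90 for Brca1, 2.68 for Bard1, 0.70 for Brca2, 1.79 for Brip1, 3.84 for Rad51b, 2.07 for Xrcc2, 2.46 for Rad54b, 2.55 for Fanca, 3.16 for Fancb and 3.25 for Fanci. Of these, Bard1 (adjusted p = 0.049) and Brca2 (0.042) were nearest the threshold, and each was lost in 10 of 21 alternatives. Fanci was lost in 9 of them, Fanca in 6, Rad54b in 3, Rad51b in 2 and Rbbp8 and Fancb in 1 each, and Chek2, Topbp1, Blm, Brca1, Brip1 and Xrcc2 were called in all 21.

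For 17 genes the effect was larger in DKO against p53KO livers than in DKO TAM against p53KO TAM livers by the same kind of test. The differences were 1.69 for Chek2, 1.10 for Topbp1, 1.10 for Rbbp8, 4.54 for Exo1, 1.12 for Blm, 2.96 for Brca1, 4.70 for Bard1, 2.39 for Palb2, 1.34 for Brip1, 3.60 for Rad51b, 2.91 for Rad51c, 3.30 for Rad54l, 2.22 for Rad54b, 3.25 for Fanca, 3.46 for Fancb, 3.35 for Fanci and 0.99 for Slx4. Nbn differed the other way (-0.62, adjusted p = 0.043) and was lost in 14 of 21 alternatives. Slx4 was lost in 7 of them, Fanci and Rad54l in 5 each, Blm in 4, Chek2 and Rad54b in 3 each and Palb2 and Rad51c in 2 each, and the other 9 genes were called in all 21. Both contrasts share the DKO and p53KO libraries. Exo1 and Rad54l had 3 counts over the p53KO libraries, so that the size of their differences depends on the prior count of the fit. Rad51b held 6 and Bard1 8 counts over the same libraries. Exo1 and Fanca passed the filter on low counts only through the DKO libraries, so that their differences are not independent of the filter.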

How the results depend on the processing

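With 2 libraries per group, folds of Exo1, Rad54l, Fancd2 and Eme1 rest on 2 or 3 counts in a control group. Of 1283 calls of members recomputed under the alternatives, 1138 were kept, 144 were lost and 1 reversed, Atm in DKO livers with library totals (0.0869). The cause of lost calls was not tested. Counts of members called moved by over 1.5 times for DKO TAM livers (4 with DESeq2 and 1 at an adjusted p under 0.01, against 7), for the DKO effect minus the KO effect (8 at 0.01, against 14) and for the DKO effect minus the DKO TAM effect (9 at 0.01, against 18). With libraries left out in turn, the count ranged from 1 to 3 in KO, 25 to 27 in DKO and 1 to 4 in DKO TAM livers, and from 8 to 12 and 13 to 21 for these differences. The median of the members was 0.35 in KO, 2.26 in DKO and 0.49 in DKO TAM livers with library totals, 1.64 and 1.60 for the differences and -0.12 in p53KO against FF livers. With upper quartile scaling it was 1.71 in DKO livers, 1.32 and 1.37 for the differences and -0.11 in p53KO livers. It was -0.16 in KO livers with the compared libraries alone, where only 23 members passed the filter, and -0.0872 with DESeq2 and -0.0877 with limma-voom in p53KO livers. With libraries left out it ranged from -0.00462 to 0.13 in KO, 1.35 to 1.64 in DKO, 0.017 to 0.23 in DKO TAM and -0.12 to 0.016 in p53KO livers, and from 0.95 to 1.23 and 1.11 to 1.35 for the differences, with a negative sign in KO livers without KO replicate 1 and a positive sign in p53KO livers without FF replicate 1.

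Over all genes, library totals turned the split of higher and lower calls to 2744 and 550 in KO, 8823 and 959 in DKO and 4346 and 586 in DKO TAM livers, and upper quartile scaling to 4662 and 2435 in DKO livers. Replicate numbers were not found to pair the libraries: deviations of same-numbered libraries correlated at 0.15 in KO and FF, 0.10 by title or -0.10 by description in DKO and p53KO, and -0.013 in DKO TAM and p53KO TAM livers. With the title number as a replicate block, 2, 25 and 5 members were called in KO, DKO and DKO TAM livers (Slx4 was not called in DKO livers, adjusted p = 0.078), 9 and 14 for the differences, and the p53KO against FF median was -0.12. With the description number as a block the counts were 3, 26, 5, 13 and 17, and with the DKO numbers crossed, chosen after seeing the data, 2, 26, 5, 13 and 18.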
